A study of Rattus norvegicus with 15 samples.

Results

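The 10 genes described here encode growth factors of blood vessels and epithelium together with the neuropilin co-receptors: Vegfa, Vegfb, Vegfc, Angpt1, Angpt2, Nrp1, Nrp2, Fgf2, Hgf and Egf. They were chosen by symbol from a table of 22436 rat genes, and all 10 were found in it. Of these, 8 exceeded 0.5 FPKM in at least 5 of 15 samples and were tested, while Fgf2 and Hgf did not and are given by level only. FPKM is the number of sequenced fragments per kilobase of gene, scaled to the size of the library, so it can be compared between genes. RNA-seq was made from prostate tissue of SD rats in 3 groups of 5 samples: untreated controls (Control), a chronic prostatitis and chronic pelvic pain model without treatment (Model), and prostate treated with low-intensity pulsed ultrasound for 4 weeks (LIPUS). The series describes the ultrasound as given to the same model. Ultrasound is applied as short bursts of sound waves. Its intensity is 1 W/cm2 in the sample titles and 1.5 W/cm2 in the treatment field, and which of them was used was not settled here. Age and the way prostatitis was induced are not given in the sources used here. Samples are numbered 6 to 10 in each group, and no label ties them to different rats, so every p-value here reflects variation among samples that could be technical.

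VEGF-A binds the receptors Flt1 and Kdr on endothelial cells and drives growth and leakiness of vessels, VEGF-B binds Flt1, and VEGF-C acts mainly on lymphatic vessels through Flt4. Neuropilins hold VEGFs and class 3 semaphorins at the cell surface beside their signalling receptors, while angiopoietin 1 activates and angiopoietin 2 mostly blocks the endothelial receptor Tek. FGF2, HGF (the ligand of Met) and EGF (the ligand of Egfr) act on epithelium and stroma, and EGF is made in large amounts by the secretory epithelium of rodent prostate and stored as a membrane-bound precursor that proteases such as Adam10 release.

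The bases before the annotated start of 4 ligands are shown because Vegfa, Vegfb and Vegfc, 3 members of 1 family, differed in their course over the groups, and because Egf was the member that was higher with ultrasound than in the model. The sequences are from RefSeq, build GRCr8, 250 bases before the start, read 5′ to 3′ along the gene; the deposited values were made on another build, rn6. Vegfa lies at chr9:22452604-22452853 on the plus strand (the first of 2 annotated starts), Vegfb at chr1:213607153-213607402 on the minus strand, Vegfc at chr16:44560888-44561137 on the minus strand, and Egf at chr2:220976298-220976547 on the minus strand. Capitals mark GGGCGG on either strand, the GC box bound by Sp1-type factors.
Vegfa: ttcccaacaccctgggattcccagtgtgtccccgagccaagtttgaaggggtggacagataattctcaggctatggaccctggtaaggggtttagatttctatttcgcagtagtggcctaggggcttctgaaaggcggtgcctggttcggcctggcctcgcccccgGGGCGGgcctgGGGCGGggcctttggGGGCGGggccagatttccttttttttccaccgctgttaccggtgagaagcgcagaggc
Vegfb: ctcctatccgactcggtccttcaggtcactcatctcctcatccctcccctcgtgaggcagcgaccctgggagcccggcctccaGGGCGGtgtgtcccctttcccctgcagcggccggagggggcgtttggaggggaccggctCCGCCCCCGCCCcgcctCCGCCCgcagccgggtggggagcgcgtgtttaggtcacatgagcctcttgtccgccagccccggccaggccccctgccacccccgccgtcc
Vegfc: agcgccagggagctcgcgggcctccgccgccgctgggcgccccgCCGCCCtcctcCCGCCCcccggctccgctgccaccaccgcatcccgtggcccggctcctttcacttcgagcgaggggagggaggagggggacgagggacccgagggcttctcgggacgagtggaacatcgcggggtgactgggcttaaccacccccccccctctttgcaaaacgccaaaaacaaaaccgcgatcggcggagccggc
Egf: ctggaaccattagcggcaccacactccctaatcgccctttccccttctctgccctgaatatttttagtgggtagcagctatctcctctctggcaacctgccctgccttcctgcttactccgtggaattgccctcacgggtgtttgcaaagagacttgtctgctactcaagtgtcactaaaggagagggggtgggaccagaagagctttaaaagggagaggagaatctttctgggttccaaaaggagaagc
The GC box was found 3 times before Vegfa, 4 times before Vegfb and 2 times before Vegfc, and 0 times before Egf. Windows were at hand for 8 of the 10 members, 9 windows in all, and 3 of these held a GC box, against 30.5% of 33469 rat windows of the same length. ACGTG, the core letters of the hypoxia-inducible factor site, was found on either strand in 1 of the 9 windows, that of Fgf2, against 16.6% of all windows. TATAAA was found in 0 of the 9 windows, against 12.9% of all. No match of one motif overlapped a match of another in these windows, and a match is a description of letters only.

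Egf was the most abundant of the 10 transcripts in every group by mean. In Control it stood at 29.9 ± 14.3 FPKM (SD, n = 5), followed by Vegfa at 11.8 ± 1.03. Nrp1 at 3.84 ± 1.17, Vegfb at 3.60 ± 0.508 and Nrp2 at 3.44 ± 1.13 FPKM came next, and their ranges overlapped. Vegfc at 1.34 ± 0.510, Angpt2 at 0.916 ± 0.336, Angpt1 at 0.890 ± 0.557 and Hgf at 0.586 ± 0.491 FPKM overlapped as well, and Fgf2 was lowest at 0.111 ± 0.0897. The order differed in LIPUS, where Vegfb at 2.32 ± 0.901 FPKM and Vegfa at 1.97 ± 1.23 overlapped and Vegfc was next to last at 0.0960 ± 0.144.

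**Figure D1:**
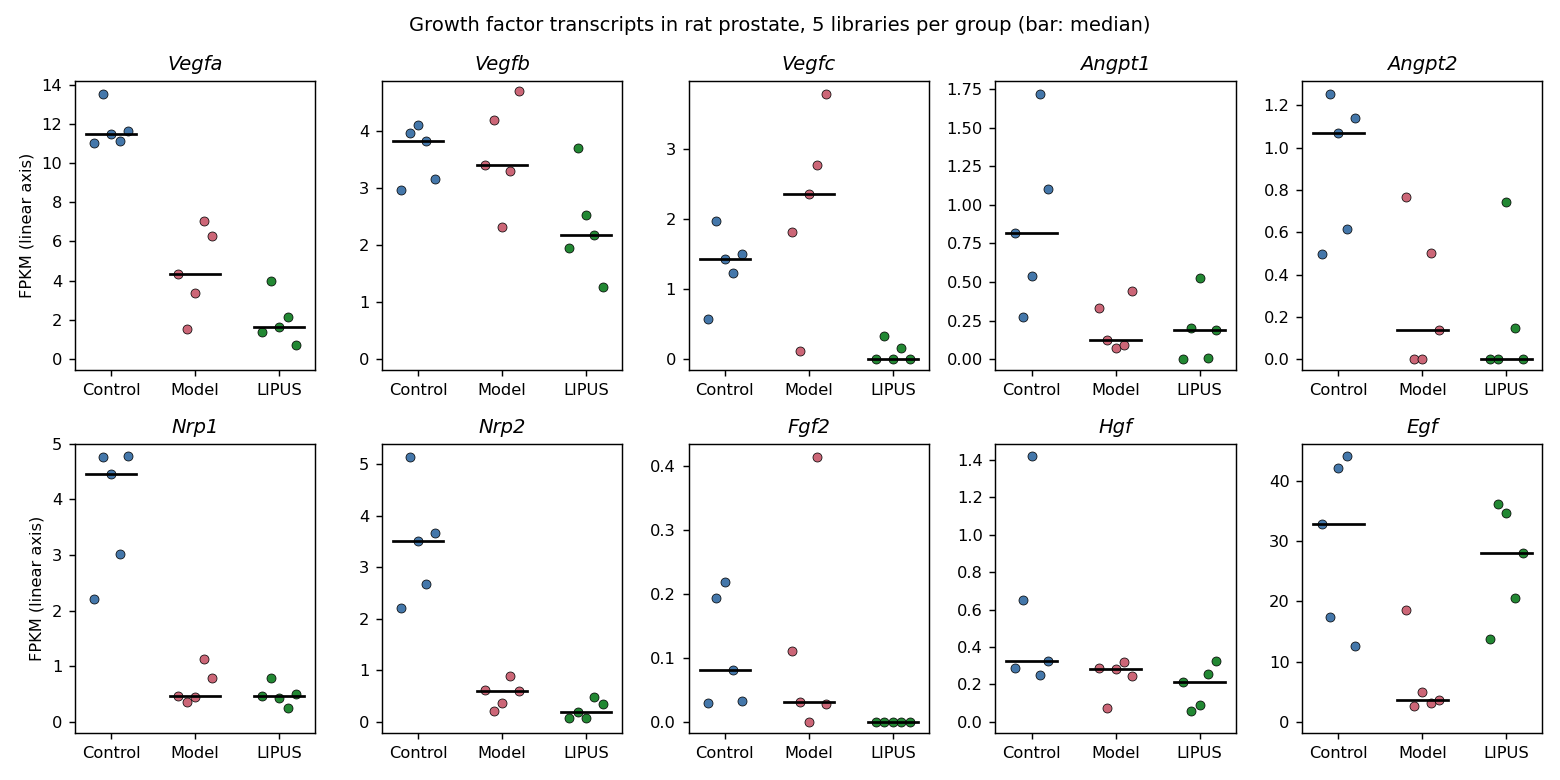
FPKM of each of the 10 members in all 15 libraries on linear axes that start at 0, with Control in blue, Model in red, LIPUS in green and a bar at the median of each group. Vegfa, Nrp1 and Nrp2 are lower in every Model library than in any Control library, Vegfc is at 0 in 3 LIPUS libraries, and Egf is low in 4 of 5 Model libraries and at 13.8 FPKM or more in every LIPUS library. On these deposited values 43.1% of all tested genes were called lower in Model than in Control.

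Libraries held 29675962 to 36402094 reads, recovered from the deposited values as whole numbers. The 13 protein-coding genes of the mitochondrial genome held a mean share of 4.23% ± 0.406 in Control libraries, compared with 34.9% ± 9.18 for Model and 59.6% ± 15.7 for LIPUS (SD, 5 libraries each), with 83.3% in LIPUS 10, so the share left for other genes differed between the groups. Each comparison is therefore given on the FPKM as deposited and on scaled FPKM, which is FPKM divided by 1 factor per library, the median over 10313 genes of the ratio to their mean. As deposited, the median log2 change over the 12490 tested genes was -0.90 for Model against Control, -0.60 for LIPUS against Model and -1.48 for LIPUS against Control, and on scaled values it was -0.15, -0.02 and -0.15. The share of all genes whose groups did not overlap is not given here. Groups without overlap are thus a description of a member's values only. A member is said to have risen or fallen where both fits passed an adjusted p under 0.05. The filter of 0.5 FPKM in 5 of 15 samples can be met by the 5 Control libraries alone. A gene low elsewhere is then tested only because it was higher in Control, and its fall is partly set by the filter. Nrp1, Nrp2, Angpt1 and Angpt2 were such members: fewer than 5 of their Model and LIPUS libraries together exceeded 0.5 FPKM. Libraries also differed in secretory transcripts that mark prostate lobes. The log2 ratio of ventral to dorsolateral transcripts was 1.16 to 5.84 in Control, -0.68 to 4.52 in LIPUS, -9.51 to -2.84 in 4 Model libraries and 7.79 in Model 7. No label used here gives the lobe, so a different mix of lobes and a change in secretory expression cannot be told apart. The defining ventral and dorsolateral secretory transcripts of prostate were present in every group.

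In the prostatitis model, the co-receptors Nrp1 and Nrp2 and the ligand Egf fell. Nrp1, Nrp2, Angpt1 and Angpt2 passed the filter only with Control libraries, so their lower values here are partly set by it. Vegfa, Angpt1 and Angpt2 were lower as deposited but not called on scaled values, and Vegfb was level as deposited and higher on scaled values. Of the 8 tested members, 6 were lower and 0 higher as deposited, where 43.1% of all tested genes were called lower and 2.95% higher. On scaled values 3 members were lower and 1 higher, where 20.2% of all tested genes were lower and 15.3% higher. The median log2 change of the 8 members was -1.75 as deposited and -1.09 on scaled values.

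Nrp1, the co-receptor for VEGF-A and semaphorin 3A, stood at 2.21, 4.76, 4.47, 3.01 and 4.77 FPKM in Control 6 to 10 and at 0.470, 0.353, 0.437, 1.12 and 0.787 in Model 6 to 10. The lowest Control library lay above the highest Model library. The log2 change was -2.47 (SE 0.370, limma adjusted p = 7.5e-05) as deposited and -1.71 (SE 0.381, adjusted p = 0.0029) on scaled values. Nrp2, which binds VEGF-C and semaphorin 3F, stood at 2.20, 5.15, 3.51, 2.68 and 3.67 FPKM in Control and 0.618, 0.207, 0.363, 0.882 and 0.595 in Model, again without overlap. Its log2 change was -2.54 (SE 0.426, adjusted p = 0.00021) as deposited and -1.78 (SE 0.511, adjusted p = 0.014) on scaled values. In LIPUS, Nrp1 stood at 0.461, 0.783, 0.431, 0.245 and 0.494 FPKM and Nrp2 at 0.0786, 0.199, 0.0694, 0.486 and 0.343 in libraries 6 to 10, both within or below the range of Model. LIPUS against Model gave scaled log2 changes of 0.26 for Nrp1 (95% interval -0.55 to 1.07, adjusted p = 0.69) and -0.51 for Nrp2 (-1.59 to 0.58, adjusted p = 0.55), so a difference was not shown, and the intervals do not show that the groups were alike either. As deposited, the values were -0.30 for Nrp1 (-1.08 to 0.48, adjusted p = 0.57) and -0.98 for Nrp2 (-1.88 to -0.08, adjusted p = 0.11), and that of Nrp2 was called without Model 7 (-1.21, adjusted p = 0.036). Against Control, both were lower in LIPUS in both fits, by -1.45 (adjusted p = 0.012) for Nrp1 and -2.28 (adjusted p = 0.0044) for Nrp2 on scaled values.

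Egf moved down in the model and up again with ultrasound. It stood at 32.9, 17.5, 42.2, 44.1 and 12.6 FPKM in Control 6 to 10, at 18.6, 2.55, 4.88, 3.11 and 3.60 in Model, and at 13.8, 36.1, 34.7, 20.6 and 28.1 in LIPUS. Model 6 was the only Model library inside the range of the other groups, and the other 4 Model libraries lay below all Control and LIPUS libraries. Model against Control gave a log2 change of -2.44 (SE 0.496, adjusted p = 0.00096) as deposited and -1.66 (SE 0.539, adjusted p = 0.026) on scaled values. LIPUS against Model gave 2.35 (SE 0.496, adjusted p = 0.025) and 3.01 (SE 0.539, adjusted p = 0.011), and these comparisons share the Model samples. LIPUS against Control was not called: the log2 change was -0.09 (95% interval -1.13 to 0.96, adjusted p = 0.87) as deposited and 1.34 (0.19 to 2.49, adjusted p = 0.081) on scaled values. Scaled Egf was highest in LIPUS 10, at 90.7, against 21.5 to 49.0 in the other LIPUS libraries, and that library had the largest mitochondrial share. The scaled fall lost its call without Control 6, 8 or 9 or Model 9 or 10, each left out in turn (adjusted p = 0.056 to 0.066), and the deposited rise lost it without Model 8, 9 or 10 or LIPUS 6 (adjusted p = 0.051 to 0.077) and with a replicate block (adjusted p = 0.060). In a fit of Model and LIPUS samples alone, the rise had adjusted p = 0.14 as deposited and 0.076 on scaled values; in a fit of LIPUS and Control samples alone the scaled LIPUS to Control difference was called (adjusted p = 0.034), as it was without Model 6 (adjusted p = 0.031).

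**Figure D2:**
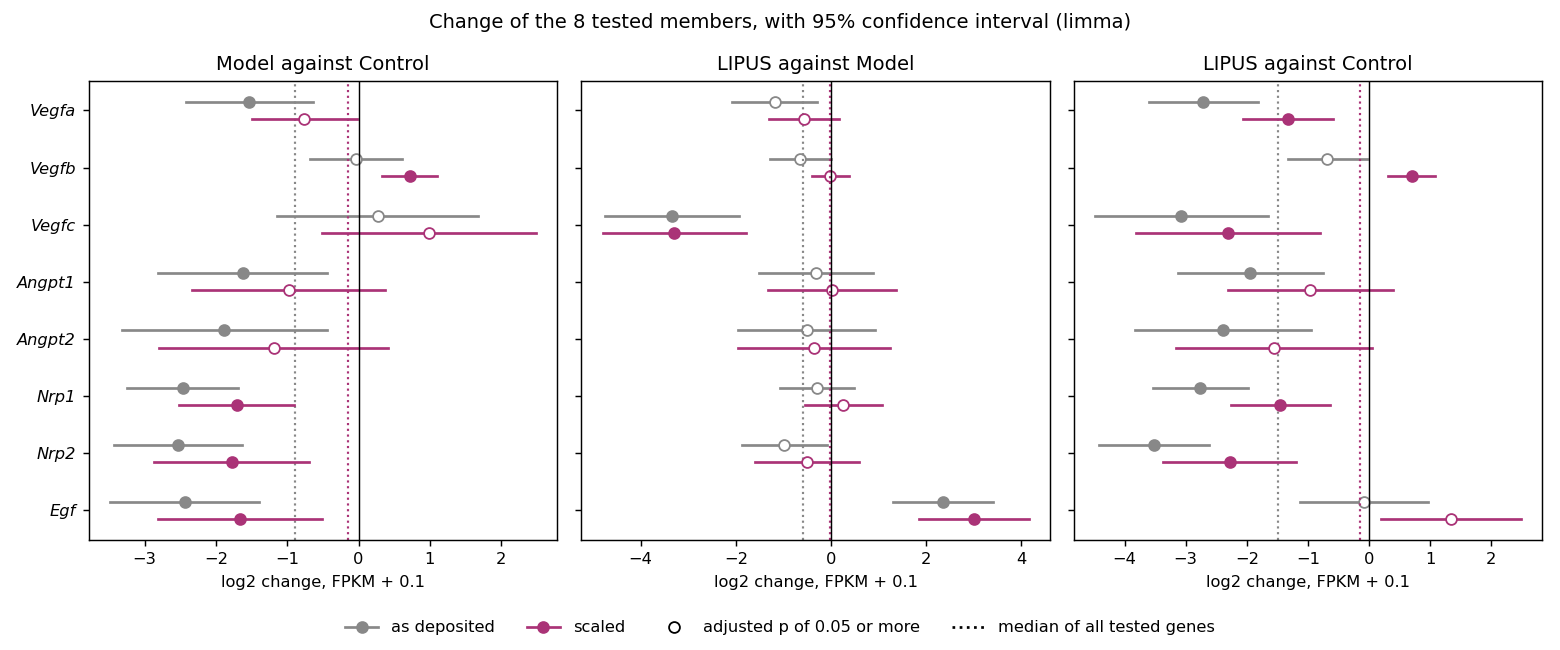
Log2 change (FPKM + 0.1) of the 8 tested members in the 3 comparisons, with 95% confidence intervals from limma, grey as deposited and purple on scaled values; open circles did not pass an adjusted p of 0.05, and dotted lines are the median of all tested genes. Nrp1 and Nrp2 lie left of the dotted lines in Model against Control, and in LIPUS against Model only Egf (2.35 and 3.01) and Vegfc (-3.34 and -3.30) have filled circles.

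With ultrasound, 1 member fell and 1 rose against the model: Vegfc and Egf. As deposited, 1 of 8 members was lower and 1 higher, where 13.3% of all tested genes were called lower and 1.31% higher. On scaled values the same 2 members were called, where 1.49% of tested genes were lower and 2.73% higher. The median log2 change of the 8 members was -0.58 as deposited and -0.19 on scaled values.

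Vegfc, the lymphatic growth factor, stood at 0.574, 1.98, 1.43, 1.23 and 1.51 FPKM in Control 6 to 10 and at 1.81, 0.118, 2.36, 2.77 and 3.79 in Model. In LIPUS it was at 0 in libraries 6, 8 and 10, at 0.324 in library 7 and at 0.156 in library 9. These are 25 reads in the 5 LIPUS libraries together, against 584 in Model and 365 in Control; all LIPUS libraries lay below all Control libraries, and Model 7 alone among the Model libraries lay within the LIPUS range. LIPUS against Model gave a log2 change of -3.34 (SE 0.670, adjusted p = 0.025) as deposited and -3.30 (SE 0.706, adjusted p = 0.023) on scaled values. LIPUS against Control gave -3.07 (adjusted p = 0.00091) and -2.31 (adjusted p = 0.026). Model against Control was not called, at 0.27 (adjusted p = 0.76) and 0.99 (adjusted p = 0.30). Within Model, Vegfc stood apart in 1 library, Model 7, where ventral transcripts prevailed and it was at 0.118 FPKM. It was at 1.81 to 3.79 FPKM in the 4 libraries with mostly dorsolateral transcripts, and did not follow the ratio among them. Model 7 also had the fewest genes with reads among Model libraries, 14195. In LIPUS 10, with a log2 ratio of -0.68 and 83.3% mitochondrial reads, Vegfc was at 0. Without Model 7 the scaled log2 change in the model was 1.74 (adjusted p = 0.0077), and with the lobe ratio as a covariate it was -0.68 (adjusted p = 0.42). The fall against Model lost its call in both fits without Model 8, 9 or 10, and in 1 of the fits without LIPUS 6 or LIPUS 10 (adjusted p = 0.054 to 0.077), with only the groups compared (0.14 and 0.15), with a replicate block (0.060 and 0.067) and on recovered reads (0.12). The scaled fall against Control lost it without Control 7, 8, 9 or 10 or LIPUS 6, 8 or 10 (adjusted p = 0.050 to 0.062).

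**Figure D3:**
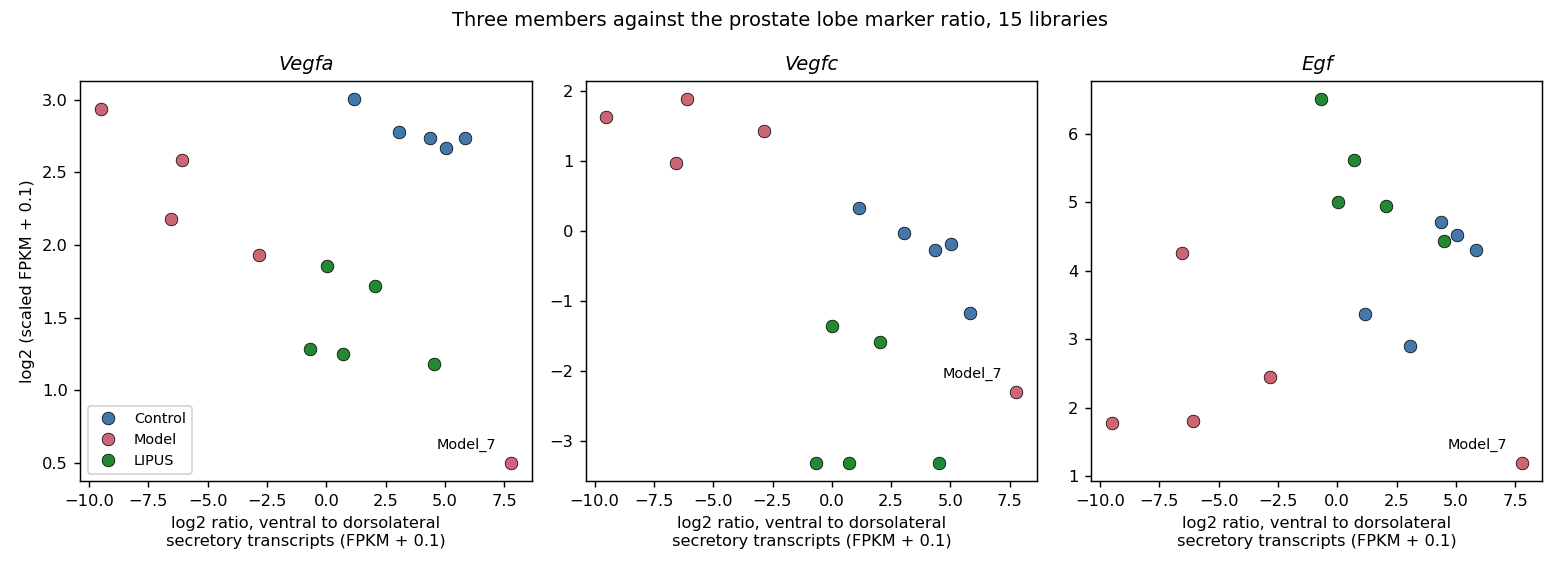
Scaled expression of Vegfa, Vegfc and Egf, as log2(scaled FPKM + 0.1), against the log2 ratio of ventral to dorsolateral secretory transcripts in the 15 libraries. Model 7, at a ratio of 7.79, is the lowest Model library for all 3 genes, and all 5 LIPUS libraries lie below all Control libraries for Vegfa and Vegfc, while LIPUS and Control overlap for Egf.

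Vegfa and Vegfb parted. Vegfa stood at 11.01, 13.5, 11.5, 11.1 and 11.6 FPKM in Control 6 to 10, at 4.32, 1.53, 3.39, 7.04 and 6.26 in Model, and at 1.39, 3.97, 1.61, 2.13 and 0.723 in LIPUS. As deposited, every Model and LIPUS library lay below every Control library. On scaled values Model 9, at 7.54, lay within the Control range of 6.24 to 7.92, and every LIPUS library (2.17 to 3.53) lay below it. Model against Control gave a log2 change of -1.53 (SE 0.424, adjusted p = 0.0078) as deposited and -0.76 (SE 0.347, adjusted p = 0.10) on scaled values. The scaled value passed relative to nuclear reads (-1.30, adjusted p = 0.0030), with the lobe covariate (-1.67, adjusted p = 0.00016) and without Model 9 (-0.98, adjusted p = 0.041). LIPUS against Control gave -2.71 (adjusted p = 7.5e-05) and -1.33 (adjusted p = 0.011), a fall in both fits. LIPUS against Model was not called, at -1.18 (adjusted p = 0.065) and -0.57 (95% interval -1.31 to 0.17, adjusted p = 0.31), and was called without Model 7 in both fits (-1.51, adjusted p = 0.0078, and -0.95, adjusted p = 0.0051) and without LIPUS 7 as deposited (-1.47, adjusted p = 0.012).

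Vegfb stood at 2.97, 3.97, 4.10, 3.83 and 3.16 FPKM in Control 6 to 10, at 3.40, 4.19, 2.31, 3.30 and 4.70 in Model, and at 1.95, 3.71, 2.52, 2.17 and 1.26 in LIPUS. The groups overlapped as deposited. On scaled values Vegfb lay at 1.77 to 2.32 in Control, against 2.54 to 4.44 in Model and 3.04 to 4.07 in LIPUS, so both groups lay above Control. Model against Control was -0.04 (adjusted p = 0.93) as deposited and 0.71 (SE 0.183, adjusted p = 0.0070) on scaled values, and LIPUS against Control was -0.68 (adjusted p = 0.051) and 0.70 (SE 0.183, adjusted p = 0.011). The direction against Control thus depended on the scaling, and relative to nuclear reads the changes were 0.19 (adjusted p = 0.62) and 0.42 (adjusted p = 0.30). As deposited, LIPUS against Control was called lower without Model 7 (adjusted p = 0.047) or LIPUS 7 (adjusted p = 0.010), and LIPUS against Model without LIPUS 7 (-0.83, adjusted p = 0.031).

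Ratios of 2 genes within a library need no scaling between libraries where both genes lie well above the pseudocount of 0.1. Vegfc, Kdr and Egfr (0.0470 to 0.248 FPKM) came near it in LIPUS. Their ratios there also depended on the share of reads left for other genes. Of 21 such comparisons (7 ratios, 3 comparisons), 5 passed a two-sided exact permutation test over the 252 assignments of 5 against 5 samples, adjusted over the 21; each had p = 0.0079, the smallest this test can give, and adjusted p = 0.033. The log2 ratio of Vegfb to Vegfa averaged -1.68 ± 0.186 in Control, -0.19 ± 0.933 in Model libraries and 0.34 ± 0.362 with ultrasound (SD, n = 5). Every Model library (-1.07 to 1.40) and every LIPUS library (-0.10 to 0.72) lay above every Control library (-1.86 to -1.46), and the ratio was higher by 1.49 in Model and 2.03 in LIPUS. With any of Control 7, 8, 9 or 10 left out, the adjusted exact permutation p of the Model difference was 0.067; without Model 7, at 1.40 the highest of its group, the LIPUS against Model difference was called (0.93, adjusted p = 0.042).

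The log2 ratio of Vegfc to Vegfa averaged -3.13 ± 0.530 in Control, -1.33 ± 0.942 in Model libraries and -3.49 ± 0.480 with ultrasound (SD, n = 5). It was lower by -2.16 in LIPUS than in Model, without overlap (exact permutation test, adjusted p = 0.033), and exceeded the Control mean by 1.80 in Model (adjusted p = 0.071). The latter passed without Model 7 (2.19, adjusted exact permutation p = 0.028). With Vegfc at 0 in 3 LIPUS libraries, their ratio is set by the pseudocount of 0.1: with a pseudocount of 0.01 the LIPUS against Model difference was -4.10 (adjusted p = 0.056) and with 1 it was -0.52 (adjusted p = 0.13), and the call was also lost without LIPUS 6, 7, 8 or 10 (adjusted p = 0.056 to 0.067). The log2 ratio of Egf to its receptor Egfr averaged 3.99 ± 0.987 in Control, 2.995 ± 1.17 in Model libraries and 6.72 ± 0.506 with ultrasound (SD, n = 5). Every LIPUS library, at 6.11 to 7.50, lay above all libraries of Control (2.81 to 4.98) and Model (1.47 to 4.22), by 2.73 and 3.73 between means. Egfr itself fell in LIPUS against Control, from 1.65 ± 0.556 to 0.155 ± 0.0962 FPKM, with scaled log2 change -1.75 (adjusted p = 0.019). The difference in the ratio from Control was 1.09 with a pseudocount of 1 (adjusted exact permutation p = 0.13). The ratios Angpt2 to Angpt1, Nrp2 to Nrp1, Vegfa to Kdr and Hgf to Met did not pass; the widest difference among them, Vegfa to Kdr in LIPUS against Control, was 1.50 (adjusted exact permutation p = 0.056), and it passed with a pseudocount of 0.01 and turned to -0.60 with 1, Kdr being at 0 in 4 LIPUS libraries. It also passed without Control 6, Model 7 or LIPUS 10, each in turn (1.50 to 1.73), and Nrp2 to Nrp1 passed against Model (-1.10) and against Control (-1.17) without LIPUS 9.

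**Figure D4:**
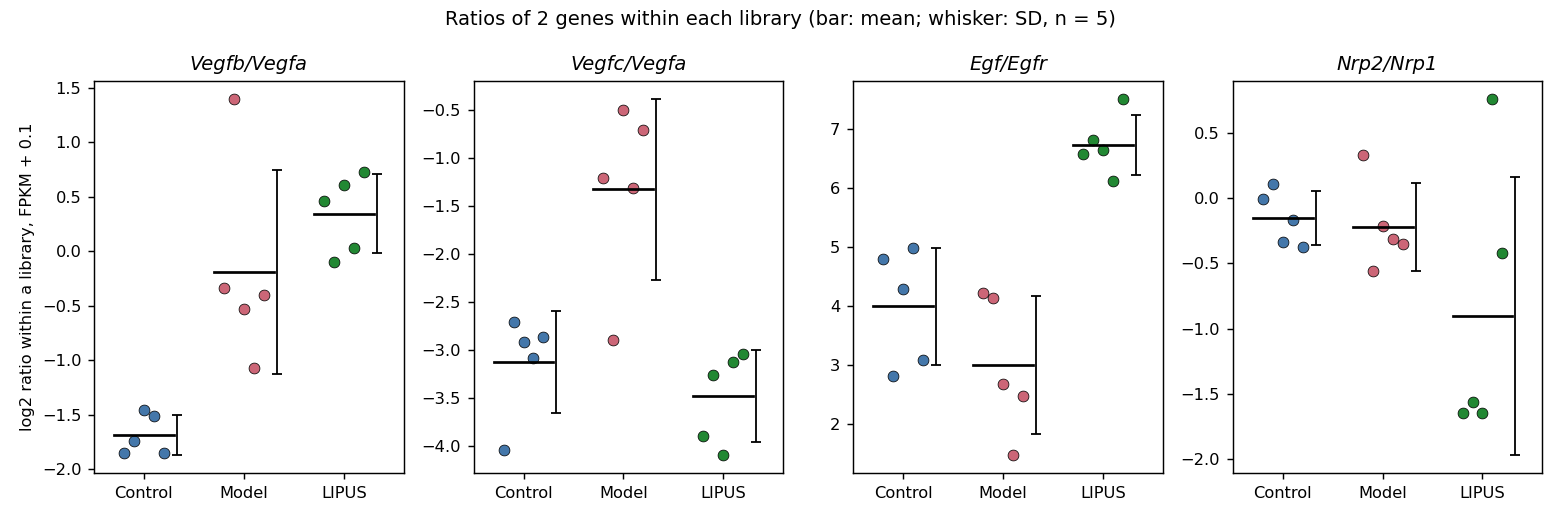
Log2 ratio of 2 genes (FPKM + 0.1) within each of the 15 libraries for Vegfb to Vegfa, Vegfc to Vegfa, Egf to Egfr and Nrp2 to Nrp1, with bars at the means and whiskers for the SD. Control libraries stand apart for Vegfb to Vegfa (-1.86 to -1.46), and LIPUS libraries stand apart for Egf to Egfr (6.11 to 7.50).

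Against Control, the LIPUS samples had 6 members lower and 0 higher as deposited, where 74.4% of all tested genes were called lower and 0.953% higher. On scaled values 4 were lower (Vegfa, Vegfc, Nrp1 and Nrp2) and 1 higher (Vegfb), where 14.3% of tested genes were lower and 11.6% higher. The median log2 change of the 8 members was -2.55 as deposited and -1.39 on scaled values. Here too the lower values of Nrp1, Nrp2, Angpt1 and Angpt2 are partly set by the filter.

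The angiopoietins were low throughout. Angpt1, the Tek agonist, stood at 0.820, 0.273, 0.536, 1.72 and 1.10 FPKM in Control 6 to 10, at 0.329, 0.123, 0.0692, 0.0942 and 0.444 in Model, and at 0, 0.205, 0.529, 0.00436 and 0.186 in LIPUS. The groups overlapped. Its log2 change in the model was -1.63 (adjusted p = 0.026) as deposited and -0.98 (adjusted p = 0.25) on scaled values, and the deposited call was lost without Control 9 or 10 or Model 8 or 9 (adjusted p = 0.061 to 0.076). Angpt2, the context-dependent antagonist, stood at 0.499, 1.25, 1.07, 0.617 and 1.14 FPKM in Control, at 0.768, 0, 0, 0.502 and 0.137 in Model, and at 0, 0, 0.742, 0.148 and 0 in LIPUS. Only 1 LIPUS library, number 8, reached the Control range. Its log2 change in the model was -1.88 (adjusted p = 0.032) as deposited and -1.19 (adjusted p = 0.24) on scaled values, and the deposited call was lost without Control 7, 8 or 10 or Model 7, 8 or 10 (adjusted p = 0.058 to 0.092). LIPUS against Control gave -1.94 (adjusted p = 0.0060) and -0.96 (adjusted p = 0.29) for Angpt1, and -2.40 (adjusted p = 0.0054) and -1.55 (adjusted p = 0.15) for Angpt2, as deposited and scaled; without LIPUS 8 the scaled Angpt2 value was called (-2.20, adjusted p = 0.031). Neither was called in LIPUS against Model, with scaled intervals of -1.33 to 1.37 for Angpt1 and -1.97 to 1.24 for Angpt2.

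Hgf, the stromal ligand of Met, was 0.250 to 1.42 FPKM in Control (median 0.327), 0.0714 to 0.318 in Model (median 0.281) and 0.0594 to 0.323 in LIPUS (median 0.214). The groups overlapped, and Control 8 alone exceeded 1 FPKM. Fgf2 was 0.0286 to 0.217 FPKM in Control and 0 to 0.413 in Model, 20 reads in each group (95% exact Poisson interval 12.2 to 30.9, for counting error only). It was at 0 in all 5 LIPUS libraries, which allows up to 0.0184 FPKM over the group at 3 reads. The reads at hand cannot show how Fgf2 differed between Control and Model.

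Most receptors of these ligands were lower than Control as deposited, and fewer were called on scaled values. Of 15 tested receptors and co-receptor partners, 14 were lower in Model as deposited and 5 on scaled values (median log2 change -1.98 and -1.21, against -0.90 and -0.15 over all tested genes), where 43.1% and 20.2% of all tested genes were lower, and 0 were higher. In LIPUS against Control, 14 were lower as deposited and 11 on scaled values, with medians of -2.95 and -1.73, where 74.4% and 14.3% of all tested genes were lower. In LIPUS against Model, 1 was lower as deposited and 0 on scaled values, where 13.3% and 1.49% of all tested genes were lower. Kdr, the main signalling receptor of VEGF-A, stood at 1.08 to 2.73 FPKM in Control, at 0 to 0.600 in Model and at 0 in all LIPUS libraries but LIPUS 7, where it was 0.101. It fell in Model (-2.50, adjusted p = 0.00071 as deposited; -1.74, adjusted p = 0.011 scaled) and in LIPUS against Control (-4.21, adjusted p = 6.3e-06, and -3.49, adjusted p = 0.00015). Plxna1, a semaphorin co-receptor of the neuropilins, fell from 1.84 ± 0.194 to 0.167 ± 0.0672 FPKM in Model, and Tie1, the partner of Tek, from 3.29 ± 1.08 to 0.346 ± 0.141. Fgfr1 also fell in Model, from 6.77 ± 1.28 to 1.22 ± 0.751 FPKM, and Fgfr3 fell in LIPUS against Control, from 3.68 ± 0.411 to 0.286 ± 0.197. Flt1, Kdr, Tie1, Fgfrl1, Erbb4 and Plxna1 had means under 0.5 FPKM in Model and LIPUS. Their lower values, and the receptor counts against Control, are thus partly set by the filter. As deposited, Met was the 1 receptor of the 15 not called lower in Model. It stood at 6.73 ± 2.06 FPKM in Control and 5.502 ± 3.33 in Model, with a scaled log2 change of -0.09 (95% interval -1.64 to 1.46, adjusted p = 0.94), and Model 7 at 0.185 FPKM was far below the other Model libraries (5.12 to 9.07).

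**Figure D5:**
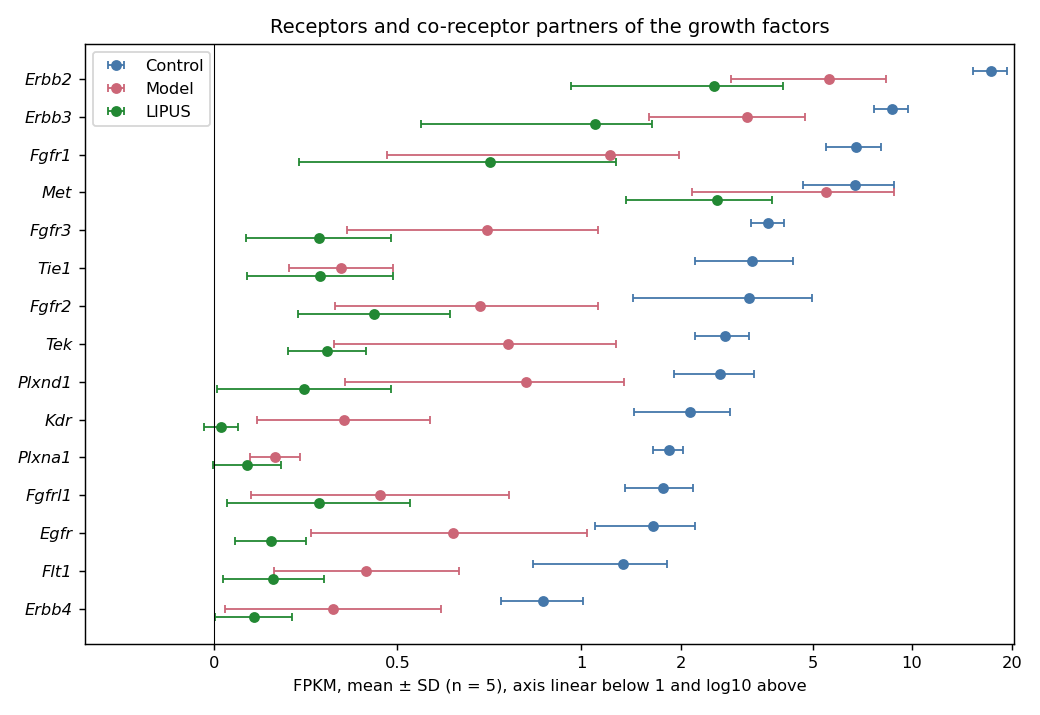
Mean FPKM of the 15 tested receptors and co-receptor partners in Control (blue), Model (red) and LIPUS (green), with SD whiskers (n = 5), on an axis that is linear below 1 and log10 above. All but Met have Model means well below Control, and Kdr has the lowest LIPUS mean, 0.0203 FPKM.

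Cell type markers differed between the groups as well, and their part in these results was not tested. In whole tissue, fewer cells of a type and less RNA per cell cannot be told apart. Among all tested genes, 43.1% as deposited and 20.2% scaled were lower in Model, and 74.4% and 14.3% in LIPUS against Control. In LIPUS against Model, 1.31% and 2.73% were higher. The summed FPKM of 8 endothelial markers ranged over 19.1 to 34.4 in Control, 1.03 to 12.8 among Model and 0.726 to 3.95 among LIPUS libraries, and 2 of 7 tested were lower in Model and 6 of 7 in LIPUS against Control on scaled values. The sum of 6 pericyte markers ranged over 14.9 to 31.3 in Control, 0.666 to 2.88 among Model and 0.340 to 2.05 among LIPUS libraries. Fibroblast markers, 6 in number, summed to 692 to 1296 FPKM in Control, against 59.8 to 160 in Model and 78.2 to 209 after ultrasound. For lymphatic endothelium, the target of VEGF-C, the sum of 4 markers was 22.7 to 32.9, 2.85 to 20.6 and 7.32 to 20.5 FPKM. On scaled values the medians of that sum were 14.5 in Control, 7.97 in Model and 15.4 in LIPUS, and 0 of its 3 tested markers were called in LIPUS against Model (median log2 change 0.64 as deposited and 1.26 scaled). Of the 4 markers, the defining factor Prox1 was at 0 in all LIPUS libraries. Luminal epithelial markers, which mark the secretory cells, summed to 452 to 706 FPKM in Control, against 310 to 785 in Model and 166 to 436 after ultrasound. On scaled values these sums were 270 to 413, 267 to 813 and 313 to 536, so their direction turned with the scaling. In LIPUS against Control 4 of 6 were lower as deposited, with a median log2 change of -0.86 against -1.48 over all tested genes. On scaled values 2 of 6 were higher (median 0.57), where 11.6% of all tested genes were higher. Ventral secretory markers were lower in Model for 4 of 4 in both fits (scaled median -4.98). Their scaled median in LIPUS against Model was 3.94, with 0 of 4 called. Egf had the same 2 signs, as did scaled medians of adipocyte, fibroblast, basal epithelial, mast cell, lymphatic endothelial and smooth muscle markers, among others. Endothelial and pericyte medians were lower in both comparisons. Ventral secretory transcripts held 0.0804%, 5.16%, 1.35%, 0.0199% and 0.203% of reads in Model 6 to 10, and a link with Egf within Model was not tested. Of 4 basal epithelial markers, 4 were lower in Model as deposited and 2 on scaled values, and 1 and 2 were higher in LIPUS against Model. Adipocyte markers were lower in Model for 4 of 4 in both fits (medians -4.86 and -4.12). Macrophage markers were higher in LIPUS, at 72.0 to 101 FPKM in sum against 40.8 to 60.4 in Control and 30.6 to 66.7 in Model, and 4 of 7 were higher than in Model as deposited and 5 on scaled values.

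Other genes of these pathways came from 5 further lists. For instance, Sema3b, Sema3g, Spry4, Thbs2, Sulf2 and Egln3 had means under 0.5 FPKM in Model and LIPUS. So did Flt1, Kdr, Tie1, Fgfrl1, Erbb4 and Plxna1 among the receptors. All of these passed the filter mostly through Control, so their falls and the counts that hold them are partly set by it. Among semaphorin ligands of the neuropilins, 4 of 4 tested were lower in Model as deposited and 3 on scaled values, and 4 of 4 in both fits in LIPUS against Control. Over all tested genes, 43.1% and 20.2% were lower in Model and 74.4% and 14.3% in LIPUS against Control. Sema3c, a semaphorin of epithelium and vessels, fell from 12.04 ± 2.08 FPKM in Control to 3.39 ± 1.42 in Model and 1.48 ± 0.475 in LIPUS; Sema3g and Sema3b also fell in Model, and Sema3f and Sema3g in LIPUS against Control. Among 6 tested other ligands, 3 were lower in Model as deposited and 1 in both fits: Fgf10, a stromal inducer of prostate epithelium, from 3.43 ± 1.14 to 0.252 ± 0.354 FPKM. In LIPUS against Control 5 of these 6 ligands were lower as deposited and 0 on scaled values, and in LIPUS against Model 1 and 0. In the latter comparison 13.3% and 1.49% of all tested genes were lower.

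Among 9 tested proteases that activate growth factors and their inhibitors, 7 were lower in Model as deposited and 5 on scaled values. In LIPUS against Model 2 of them rose in both fits. Over all tested genes, 43.1% and 20.2% were lower in Model, and 1.31% and 2.73% were higher in LIPUS against Model. With only the groups compared, LIPUS against Model gave 3 genes over all as deposited and 1 on scaled values. At most 1 of the 2 rises can thus keep its scaled call there. Adam10, which sheds EGF-family ligands, stood at 32.0 ± 5.06 FPKM in Control against 2.31 ± 1.25 in Model and 4.58 ± 0.983 in LIPUS. Its scaled log2 change was -3.12 (adjusted p = 8.2e-06) in Model, 1.75 (adjusted p = 0.010) in LIPUS against Model and -1.37 (adjusted p = 0.0041) in LIPUS against Control. Plau, the urokinase that can activate HGF, was 4.87 ± 1.07, 0.419 ± 0.228 and 1.48 ± 0.625 FPKM, with scaled log2 changes of -2.57 in Model (adjusted p = 0.00086) and 2.21 in LIPUS against Model (adjusted p = 0.025). Plat fell in Model and in LIPUS against Control, and Adam17, another sheddase, in LIPUS against Control, to 1.15 ± 0.579 from 5.74 ± 0.592 FPKM; in that comparison 8 of the 9 were lower as deposited and 3 on scaled values, beside 74.4% and 14.3% of all tested genes.

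Among feedback and matrix regulators, 12 of 14 tested were lower in Model as deposited and 5 on scaled values, and 14 and 6 in LIPUS against Control. The shares of all tested genes were 43.1% and 20.2% in Model, and 74.4% and 14.3% in LIPUS against Control. Spry4, a feedback inhibitor of receptor tyrosine kinases, fell from 0.817 ± 0.211 to 0.0378 ± 0.0294 FPKM in Model, Sulf2, a heparan sulfatase, from 2.80 ± 1.24 to 0.281 ± 0.141, and Thbs2, an inhibitor of angiogenesis, from 1.26 ± 0.235 to 0.0947 ± 0.0888. In LIPUS against Control the largest scaled changes among those called in both fits were of Thbs1 (-2.41), Sdc3 (-1.96) and Sulf1 (-1.96). In LIPUS against Model 2 of these 14 were lower as deposited and 0 on scaled values, where 13.3% and 1.49% of all tested genes were lower. Of 12 tested hypoxia response genes, 6 were lower in Model as deposited, and 3 lower and 2 higher on scaled values, shares near those of all tested genes (43.1% lower as deposited, 20.2% lower and 15.3% higher scaled). Adm, adrenomedullin, a vasodilator, fell from 70.6 ± 20.5 to 3.73 ± 4.68 FPKM. Egln3 and Arnt fell in Model as well. In LIPUS against Control 11 hypoxia response genes were lower as deposited, and 0 lower and 1 higher on scaled values (all tested genes 74.4%, 14.3% and 11.6%). In LIPUS against Model 1 was lower as deposited and 1 higher on scaled values (all tested genes 13.3% and 2.73%).

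The genes whose scaled course over the 15 libraries was most like a member's were found by the root mean square difference of centred log2 values. For Vegfa they were Ankle2 (0.165) and Maco1 (0.216), against a spread of 0.747 of Vegfa itself. For Vegfb they were Ddx50 (0.164) and Aamp (0.167), against a spread of 0.383. Vegfc had Adora2b (0.671) and Gja5 (0.699), against a spread of 1.75, and Adora2b was at 0 FPKM in LIPUS. Angpt1 had C1qtnf1 (0.685) and Mef2c (0.696) against 1.04, and Angpt2 had Egln3 (0.635) and Pln (0.726) against 1.31. Nrp1 had Ajuba (0.364) and Arhgap21 (0.369) against 0.922, and Nrp2 had Rrnad1 (0.459) and Kirrel1 (0.464) against 1.23. Egf had Smad9 (0.642) and Id3 (0.705) against a spread of 1.49: Id3 stood at 27.1, 5.86 and 17.5 FPKM and Smad9 at 1.79, 0.215 and 0.712 in Control, Model and LIPUS on average.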

How the data were processed

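RNA-seq of 15 rat prostate samples was deposited by the authors as FPKM per gene for 22436 genes, with no counts. The submitters' processing notes name DESeq2, HTSeq, HISAT2, fastp, SAMtools and R 3.2.0, and the build rn6. Their order, and the strand of the libraries, are not given in the sources used here. Whole reads were recovered from FPKM for all 22436 genes within 0.001, by a search for gene lengths and library totals that was tested on simulated data. A floor of 3 reads is 0.0412 to 0.0505 FPKM for a 2 kb gene.

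Genes above 0.5 FPKM in 5 of 15 samples (12490) were fitted as log2(FPKM + 0.1) with limma 3.58.1 in R 4.3.3, with an intensity trend, all 3 groups in 1 fit and Benjamini-Hochberg adjustment, once as deposited and once after division by median-of-ratios factors. Fold changes on this scale understate changes of low genes. Ratios were tested with exact permutation tests computed directly over all assignments, a calculation checked on made-up numbers against scipy 1.17.1. Alternatives were another pseudocount (0.01, 1), no filter, only the groups compared, a replicate block, leaving out each sample, and for scaled values quantile normalization, nuclear reads as the reference, limma-voom on recovered reads and a lobe covariate.

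Named genes were all members, Kdr, Met and Egfr, up to 3 genes per pathway list and comparison called in both fits by largest scaled change, and the 2 genes most like each tested member. Members and lists were chosen with earlier results of these data known. Symbols were matched by name or RefSeq synonym. Ereg was not analysed here. The deposited table has no column outside the 15 samples used.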

Additional observations from a re-analysis of the deposited data

Results flagged for a closer look

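Within groups of 5, a library was set apart where its gap to the next exceeded 0.71 of the group's range (Dixon's critical value for 5 samples). This held in 6 of the 50 groups of member levels and ratios checked, and chance gives about 1 in 20. Vegfa was 13.5 FPKM in Control 7, above 11.01 to 11.6 in the other Control libraries. Angpt2 was 0.742 FPKM in LIPUS 8, against 0 to 0.148 in the others. Fgf2 was 0.413 FPKM in Model 9, from 14 reads, against 0 to 0.111. Egf was 18.6 FPKM in Model 6, against 2.55 to 4.88. The log2 ratio of Vegfc to Vegfa was -4.04 in Control 6, below -3.08 to -2.72 in the others. The log2 ratio of Hgf to Met was -0.74 in Model 7, against -4.74 to -3.78 in the others; Met was 0.185 FPKM there.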

How the results depend on the processing

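Same-numbered samples did not deviate together (correlations -0.42 to 0.252, 3 of 15 pairs over 0.1, and 3 samples closest to their own number), so the replicate block is only an alternative. With the replicate block, calls in LIPUS against Model went from 1820 to 3 over all genes as deposited and from 527 to 128 scaled, and calls of members from 2 to 0 (Vegfc and Egf, each adjusted p = 0.060) and from 2 to 1 (Vegfc lost, 0.067). Angpt2 in Model (deposited, adjusted p = 0.054) and Vegfc in LIPUS against Control (scaled, adjusted p = 0.050) also lost their calls, and the block changed no other member's call. With only the groups compared, LIPUS against Model gave 3 and 1 genes over all, and 0 and 0 members. Without the filter it gave 812 and 272 genes, and scaled values gave 260 relative to nuclear reads, and 81 genes with 1 member (Egf) by limma-voom. Ratios called went from 1 to 2 in Model against Control with pseudocount 1, and in LIPUS against Model from 2 to 1 with 0.01 and with 1.

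With single samples left out, all genes called ran from 4889 to 6979 (deposited) and 3610 to 5890 (scaled) in Model against Control, 8 to 4576 and 111 to 4013 in LIPUS against Model, and 8655 to 10108 and 2403 to 4292 in LIPUS against Control. In LIPUS against Model the deposited highs were without LIPUS 7 (4576) and Model 7 (4040), the lows without Model 9 (8), Model 10 (10), LIPUS 6 (22), Model 8 (23) and Model 6 (256); the scaled count was 4013 without Model 7. Members called ran from 4 to 6 and 3 to 5, 0 to 4 and 1 to 3, and 6 to 7 and 4 to 6 in the same order; ratios called from 0 to 2, 1 to 3 and 2 to 3.

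The deposited fall of Angpt1 in Model lost its call with pseudocount 0.01 (adjusted p = 0.12), that of Angpt2 with 0.01 (0.081) and without the filter (0.057), and the scaled fall of Vegfc in LIPUS against Control with pseudocount 1 (0.099), quantile normalization (0.082) and limma-voom (0.10). Scaled calls were gained by Vegfc in Model with quantile normalization (1.61, adjusted p = 0.025) and by Angpt2 in Model and in LIPUS against Control with the lobe covariate (0.048 and 0.040).

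Sign changes all concerned values not called as reported. With the lobe covariate these were Vegfc in Model against Control (-0.68) and, in LIPUS against Model, Vegfa (0.027), Vegfb (0.035), Angpt2 (0.38) and Nrp2 (0.072), all scaled. Vegfb there was 0.23 relative to nuclear reads. Scaled Angpt1 was 0.014 (Model) and 0.036 (LIPUS) against Control by quantile normalization, and in LIPUS against Model -0.70 with pseudocount 0.01 and -1.17 by limma-voom. With pseudocount 1, log2 Angpt2/Angpt1 (0.0019), Nrp2/Nrp1 (0.036) and Vegfa/Kdr (-0.12) in Model against Control, Vegfa/Kdr in LIPUS against Model (-0.48) and Control (-0.60), and Vegfc/Vegfa in LIPUS against Control (1.12, adjusted exact permutation p = 0.033) turned. With 0.01, Hgf/Met against Control (-0.10 in Model, -0.024 in LIPUS) and Angpt2/Angpt1 in LIPUS against Model (0.015) turned. Their cause was not tested.

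With samples left out in turn, scaled LIPUS against Model ran from -0.38 to 0.40 for Angpt1, -0.99 to 0.073 for Angpt2, -0.0046 to 0.48 for Nrp1 and -0.13 to 0.066 for Vegfb. Deposited Egf in LIPUS against Control ran from -0.36 to 0.13, and deposited Model against Control from -0.14 to 0.11 for Vegfb and -0.048 to 0.99 for Vegfc. Log2 Angpt2/Angpt1 ran from -0.58 to 0.23 in LIPUS against Model and -0.69 to 0.17 in Model against Control, Nrp2/Nrp1 there from -0.21 to 0.017, and Hgf/Met from -0.65 to 0.35 in Model against Control, -0.15 to 0.98 in LIPUS against Model and -0.12 to 0.69 in LIPUS against Control. Nrp1 and Nrp2 against Control kept direction and call under every alternative run, in both groups and fits, as did Vegfa in LIPUS against Control.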
